A study of Homo sapiens with 6 samples.

Results

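The genes described here are the effectors of necroptosis and pyroptosis, the lytic forms of programmed cell death. They are 9 genes chosen by name for their roles in these pathways, out of 62710 Ensembl genes listed for each library, and all 9 were found. Of these, 4 act in necroptosis (RIPK1, RIPK3, ZBP1 and MLKL), 2 are inflammatory caspases (CASP1 and CASP4) and 3 are gasdermins (GSDMB, GSDMD and GSDME). RNA was sequenced in 3 libraries of untreated HT1080 cells and 3 libraries of HT1080 cells exposed to 20 ng/mL IFNβ for 24 h. HT1080 is an established human fibrosarcoma cell line, so all libraries come from a single line, and untreated cells received no IFNβ. The labels and the study's cell culture methods name human IFNβ for these cells, but mouse IFNβ is named in its methods for RNA sequencing. Nothing in the labels says whether the libraries of a group came from separate cultures, so that p-values measure only the spread between these libraries.

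In necroptosis, the kinase RIPK1 downstream of death receptors, the adaptor TICAM1 downstream of TLR3, and ZBP1, a sensor of Z-form nucleic acids, each engage the kinase RIPK3 through a shared interaction motif. RIPK3 then phosphorylates the pseudokinase MLKL, which oligomerizes and permeabilizes the plasma membrane. In pyroptosis, an inflammatory caspase or another protease cuts a gasdermin, and the freed N-terminal part forms pores in the plasma membrane. CASP1 is activated by inflammasomes and also matures the cytokines IL-1β and IL-18, and CASP4 senses intracellular lipopolysaccharide. GSDMD is cut by both of these caspases and GSDMB by granzyme A. Type I interferon is known to raise transcription of several of these genes through the ISGF3 complex.

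Levels were deposited as FPKM, the fragments of a gene per unit of its length and of library depth. They were converted back to whole fragments, since each value was an exact multiple of the value of a single fragment, and the libraries were divided by between 22848104 and 32915500 fragments. FPKM in bulk RNA is a share of the library, and a higher level in each cell cannot be told apart from a larger share of cells that carry the transcript. The treatment was visible in interferon-response genes, among them ISG15, a ubiquitin-like modifier, which went from 10.5 ± 0.473 to 1448 ± 30.1 FPKM, and MX1, an antiviral GTPase, which went from 0.243 ± 0.0575 to 70.6 ± 1.21 FPKM (mean ± S.D., n = 3 libraries each). Mesenchymal markers (VIM, FN1, CD44, S100A4, TGFBI and SPARC) summed to between 834 and 885 FPKM in untreated libraries and between 864 and 895 after IFNβ. Their sum hides opposite changes, since FN1 (1.43 times) and SPARC (1.25 times) were higher and VIM (0.815 times), CD44 (0.941 times) and TGFBI (0.552 times) lower at a limma adjusted p under 0.05, and S100A4 did not pass. The 9 leukocyte markers summed to between 1.21 and 1.26 FPKM and between 1.07 and 1.21 FPKM, nearly all of it from CSF1R, and the 6 epithelial markers to between 0.256 and 0.464 FPKM and between 0.580 and 0.654 FPKM, mostly from CLDN4, a tight junction protein that was itself 1.83 times higher (limma adjusted p = 0.047). None of these 15 markers of other cell types was listed at 0 in all libraries. The part of the mesenchymal and epithelial markers in the results was not tested.

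Promoter windows were read for some of these genes. RefSeq windows on GRCh38.p14, from 250 bases before to 50 bases after the annotated start, were matched for 4 of the 9 genes, with 3 windows for RIPK1 and a single window each for MLKL, CASP4 and GSDME. Both strands were searched for GAAANNGAA, the core of the interferon-stimulated response element that ISGF3 binds, and for TTCNNNGAA, the core of the gamma-activated site. In all 35116 promoter windows of the same length, the former was present in 8.11% and the latter in 7.66%. The 4 sequences below are printed 5′ to 3′ on the strand of the gene, because 3 of these genes had higher levels after IFNβ and GSDME did not. Capitals mark the only match found, which is GAAANNGAA on the opposite strand, read here as TTCGGTTTC, and no letters overlap with the other motif.
RIPK1, the second start (chr6:3068128-3068427, plus strand): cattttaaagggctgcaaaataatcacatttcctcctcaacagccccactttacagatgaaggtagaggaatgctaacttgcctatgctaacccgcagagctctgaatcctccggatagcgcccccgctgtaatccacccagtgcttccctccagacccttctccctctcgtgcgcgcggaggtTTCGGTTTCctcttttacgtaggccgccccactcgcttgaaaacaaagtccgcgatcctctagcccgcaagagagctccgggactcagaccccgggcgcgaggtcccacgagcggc
MLKL (chr16:74700813-74701112, minus strand): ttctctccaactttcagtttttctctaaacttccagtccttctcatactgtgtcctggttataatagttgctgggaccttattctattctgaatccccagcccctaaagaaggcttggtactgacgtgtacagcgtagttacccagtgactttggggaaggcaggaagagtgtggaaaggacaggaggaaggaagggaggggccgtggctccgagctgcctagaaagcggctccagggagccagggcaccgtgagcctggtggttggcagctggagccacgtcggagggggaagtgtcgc
CASP4 (chr11:104968525-104968824, minus strand): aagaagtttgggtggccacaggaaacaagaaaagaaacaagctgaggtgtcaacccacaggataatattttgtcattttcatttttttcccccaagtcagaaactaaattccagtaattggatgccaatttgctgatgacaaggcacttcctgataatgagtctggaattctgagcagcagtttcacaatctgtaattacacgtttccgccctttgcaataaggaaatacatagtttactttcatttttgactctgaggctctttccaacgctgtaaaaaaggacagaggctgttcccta
GSDME (chr7:24757415-24757714, minus strand): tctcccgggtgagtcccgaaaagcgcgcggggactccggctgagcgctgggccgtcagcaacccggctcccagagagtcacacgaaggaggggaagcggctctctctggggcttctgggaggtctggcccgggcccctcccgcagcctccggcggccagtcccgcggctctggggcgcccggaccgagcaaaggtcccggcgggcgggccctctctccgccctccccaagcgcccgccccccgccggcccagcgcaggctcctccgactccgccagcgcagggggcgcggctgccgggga
The match lay at position -66 from the second annotated start of RIPK1. It also fell within the window of the third start (chr6:3068244-3068543), at position -182, because these windows overlap. Neither motif was found in the window of the remaining RIPK1 start (chr6:3063717-3064016), nor in those of MLKL, CASP4 and GSDME. These letters describe the printed windows only.

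Of the 9 genes, 8 reached a mean of 0.1 FPKM over the 6 libraries and were tested with limma on log2(FPKM + 0.1) together with all 20716 genes above that level. ZBP1, CASP1 and GSDMD were called higher after IFNβ, with the p-value under 0.05 after Benjamini-Hochberg adjustment and a log2 fold change of 1 or more, and 0 were called lower. Among all genes tested, 3.49% were called higher. MLKL, CASP4, RIPK1 and GSDMB also passed the adjusted p-value but not the fold threshold, so that 7 of 8 were higher without a fold threshold, where 15.2% of all genes were higher and 17.5% were lower. The 3 untreated and 3 IFNβ-treated values did not overlap for 8 of the 9 genes, and such a separation was present in 46.6% of all genes tested, so this count by itself says little. The median log2 fold change of the 8 genes was 0.90, against 0.00017 over all genes tested. Fold changes on this log2 scale understate the change of low genes.

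**Figure D1:**
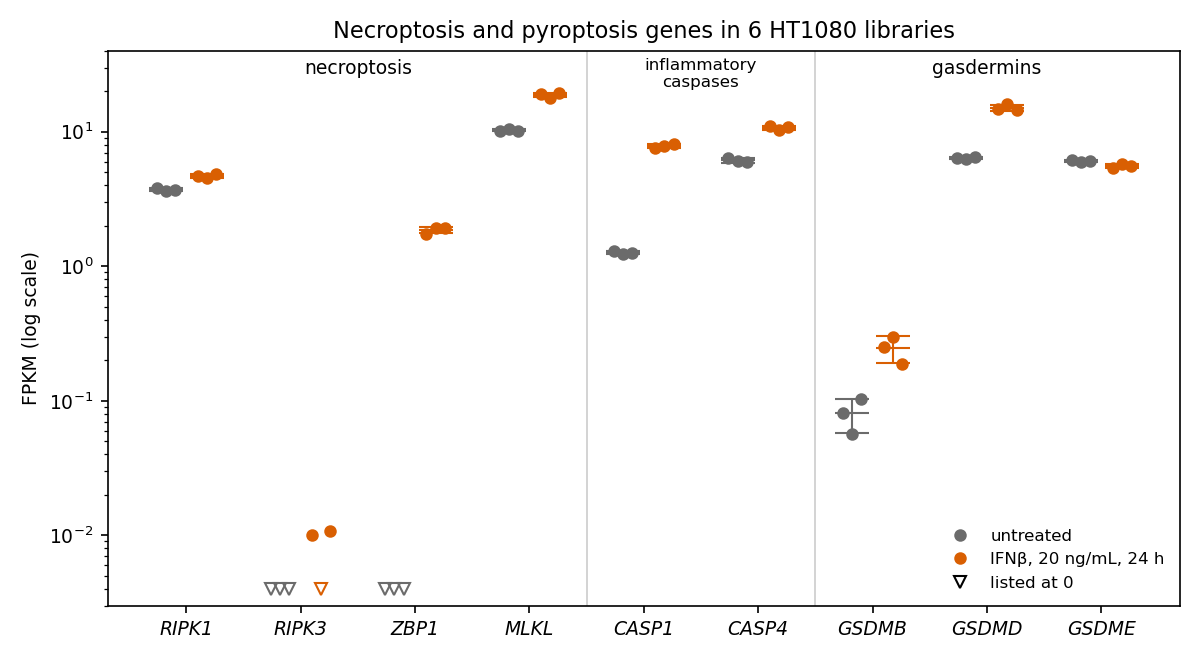
FPKM of each gene on a log axis in 3 untreated (grey) and 3 IFNβ-treated (orange) HT1080 libraries, with the mean and S.D. as bars where no library is at 0, and open triangles for libraries listed at 0. CASP1 moves from 1.27 to 7.85 FPKM, ZBP1 appears after IFNβ, and GSDME and RIPK3 stay close to their untreated levels.

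The necroptosis genes were present at levels that differed widely. MLKL (ENSG00000168404, chr16:74671855-74700960, minus strand, GRCh38), which makes the final membrane lesion, had 10.2, 10.4 and 10.2 FPKM in the untreated libraries and 19.1, 17.9 and 19.3 FPKM after IFNβ. It had the highest FPKM of the 9 genes in both groups, on between 1327 and 3348 fragments, and every IFNβ-treated library was above every untreated library. Mean MLKL went from 10.3 ± 0.130 to 18.8 ± 0.759 FPKM (mean ± S.D., n = 3 libraries each), a ratio of 1.83. Its log2 fold change was 0.86 (SE 0.03, 95% interval 0.78 to 0.95, limma adjusted p = 1.1e-05), which is clear of the spread between libraries and under the fold threshold.

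ZBP1 (ENSG00000124256, chr20:57603846-57620576, minus strand) was at 1.75, 1.93 and 1.92 FPKM after IFNβ, and each of the 3 untreated libraries listed it at 0. The IFNβ-treated values rest on 291, 260 and 300 fragments. Its mean after IFNβ of 1.86 ± 0.101 FPKM was at least 76.8-fold higher than 0.0243 FPKM, the value of 3 fragments in the shallowest untreated library. The call for ZBP1 had a limma adjusted p of 6.6e-06, and its fitted log2 fold change of 4.30 (SE 0.15) depends on the pseudocount, being 1.52 with a pseudocount of 1 and 7.55 with 0.01.

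RIPK1 (ENSG00000137275, chr6:3063991-3115187, plus strand), whose promoter carries the match above, had 3.79, 3.62 and 3.71 FPKM in untreated cells and 4.69, 4.54 and 4.88 FPKM after IFNβ. The groups did not overlap, and the rise was small, from 3.71 ± 0.0857 to 4.70 ± 0.166 FPKM or 1.27 times. RIPK1 had a log2 fold change of 0.34 (SE 0.04, 95% interval 0.23 to 0.44, limma adjusted p = 0.0016). Its level per length is uncertain, because the authors' values imply a gene length of 12173 bases where the exons of GENCODE release 29 cover 4231. Dividing the same fragments by the latter length put RIPK1 at 10.7 FPKM in untreated cells and 13.5 FPKM after IFNβ. Its untreated mean was then above that of MLKL, with overlapping libraries. These fragments were counted with the authors' annotation, and some may lie outside the 4231 bases, so both values may be too high. The exons of RIPK1 share 238 bases with the antisense gene AL031963.3, which was listed at between 0.436 and 0.774 FPKM, and the counting is not stated to use strand.

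RIPK3 (ENSG00000129465, chr14:24336021-24340045, minus strand), the kinase that activates MLKL, was listed at 0 in every untreated library. After IFNβ it was at 0.0101, 0 and 0.0107 FPKM, which is 1, 0 and 1 fragments, so the groups overlapped. No fold is given, since both groups lay at or under 3 fragments per library, and RIPK3 was not tested with the other genes. Without the filter on low levels its log2 fold change was 0.10 (limma adjusted p = 0.53). In the shallowest untreated library 3 fragments of RIPK3 equal 0.0407 FPKM, so a value of 0 there allows a level of up to this. Of its annotated exon bases, 358 are shared with AL096870.1, which was listed at 0 in all libraries.

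The inflammatory caspases both passed the adjusted p-value, and they differed in size. CASP1 (ENSG00000137752, chr11:105025443-105035250, minus strand) had 1.30, 1.24 and 1.26 FPKM in untreated libraries and 7.62, 7.89 and 8.04 FPKM after IFNβ. The groups lay far apart relative to their spread, at 1.27 ± 0.0311 and 7.85 ± 0.215 FPKM, a ratio of 6.18 that rests on between 118 and 930 fragments per library. CASP1 had a log2 fold change of 2.54 (SE 0.04, 95% interval 2.43 to 2.65, limma adjusted p = 2.4e-07) and was exceeded by 0.768% of all genes tested.

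CASP4 (ENSG00000196954, chr11:104942866-104969436, minus strand) had 6.36, 6.02 and 5.97 FPKM in untreated libraries and 10.95, 10.2 and 10.8 FPKM after IFNβ. All IFNβ-treated libraries were above all untreated ones, with means of 6.12 ± 0.214 and 10.7 ± 0.378 FPKM, a ratio of 1.74. The log2 fold change of CASP4 was 0.79 (SE 0.04, 95% interval 0.69 to 0.89, limma adjusted p = 3.5e-05), under the fold threshold.

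Both caspases lie in a cluster of related genes on chromosome 11, all on the minus strand. CASP4 ends 56.0 kb from CASP1, with CASP5 between them, and CARD16, a CARD-only relative of CASP1 that binds it, lies 6.08 kb beyond CASP1. CARD16 went from 0.568 ± 0.137 to 2.35 ± 0.139 FPKM, on between 17 and 113 fragments, and was called higher (log2 fold change 1.90, limma adjusted p = 0.00025). CARD16 and CASP1 are near copies in part, since 10.6% of the 50-base words of CARD16 transcripts occur in CASP1 and 4.37% of those of CASP1 occur in CARD16, so some of their fragments could have been assigned to either gene. The other genes of the cluster gave almost no fragments. CASP5 and CARD18 were listed at 0 in all 6 libraries, and CASP12 had 1 and 4 fragments in 2 IFNβ-treated libraries. CARD17P was at 0.0867 FPKM in the third IFNβ-treated library only, which does not fix its number of fragments.

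**Figure D2:**
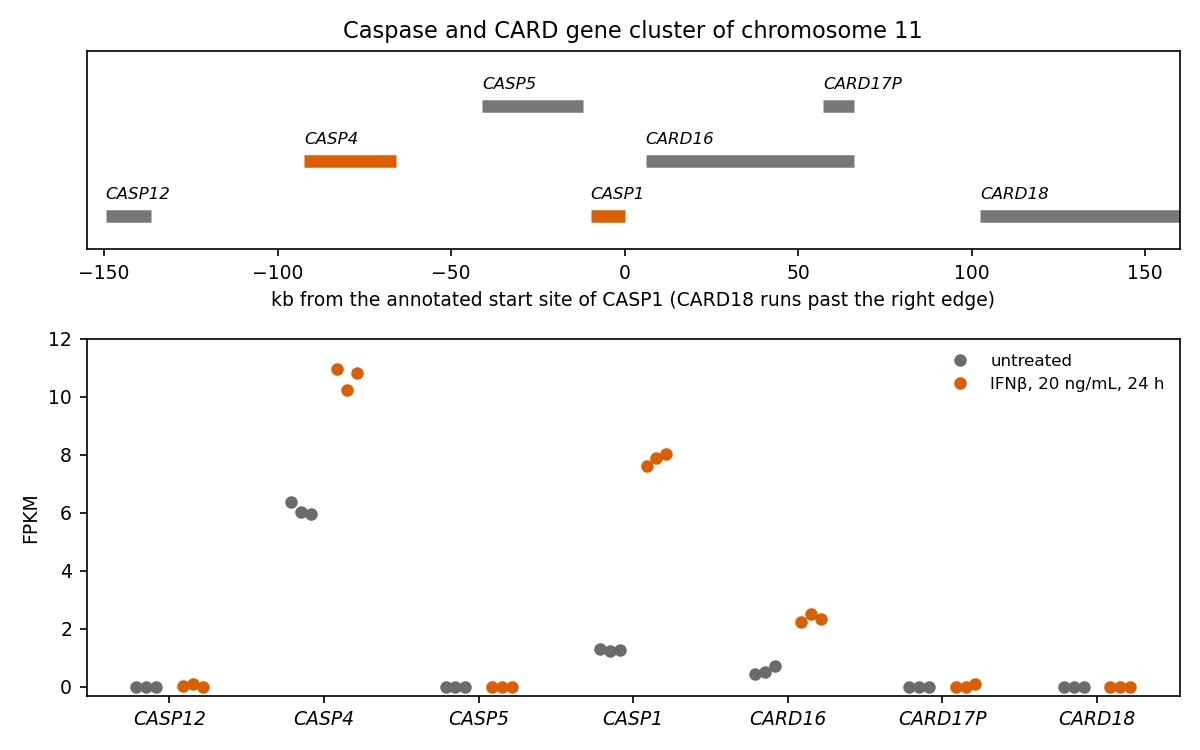
Upper panel, positions of the caspase and CARD genes of chromosome 11 in kb from the annotated start of CASP1, with the 2 caspases described here in orange. Lower panel, FPKM of each gene in 3 untreated (grey) and 3 IFNβ-treated (orange) libraries, where CASP4, CASP1 and CARD16 are higher after IFNβ and the remaining genes are at or near 0.

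Of the 3 gasdermins, 1 was called. GSDMD (ENSG00000104518, chr8:143553207-143563062, plus strand), the pore-forming substrate of CASP1 and CASP4, had 6.40, 6.23 and 6.44 FPKM in untreated libraries and 14.8, 16.04 and 14.5 FPKM after IFNβ. The groups were well separated, at 6.36 ± 0.111 and 15.1 ± 0.807 FPKM, a ratio of 2.38. GSDMD was called higher, with a log2 fold change of 1.24 (SE 0.04, 95% interval 1.13 to 1.34, limma adjusted p = 5.7e-06).

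GSDME (ENSG00000105928, chr7:24698351-24758113, minus strand), another pore-forming gasdermin, had 6.17, 5.94 and 6.02 FPKM in untreated libraries and 5.35, 5.78 and 5.60 FPKM after IFNβ. The IFNβ-treated values lay just under the untreated ones, at 5.57 ± 0.216 against 6.04 ± 0.119 FPKM, a ratio of 0.922. The difference did not pass the test, with a log2 fold change of -0.12 (SE 0.04, 95% interval -0.21 to -0.02, limma adjusted p = 0.071). Over 16 alternative settings the adjusted p of GSDME ran from 0.034 to 0.18 and was under 0.05 in 3 of them.

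GSDMB (ENSG00000073605, chr17:39904595-39919854, minus strand), the substrate of granzyme A, was near the limit of this depth. It had 0.0815, 0.0571 and 0.103 FPKM in untreated libraries, on 11, 10 and 20 fragments, and 0.253, 0.298 and 0.188 FPKM after IFNβ, on 46, 44 and 32 fragments. The means were 0.0805 ± 0.0229 and 0.246 ± 0.0557 FPKM, a ratio of 3.06, and the groups did not overlap. The log2 fold change of GSDMB was 0.93 with a wide interval (SE 0.26, 95% interval 0.32 to 1.55, limma adjusted p = 0.033). The result depends on the processing, since GSDMB was called with a pseudocount of 0.01 (log2 fold change 1.51, adjusted p = 0.035) and with limma-voom on the fragments (1.57, adjusted p = 0.00064), whereas leaving out any one of the 6 libraries gave an adjusted p between 0.05 and 0.10.

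**Figure D3:**
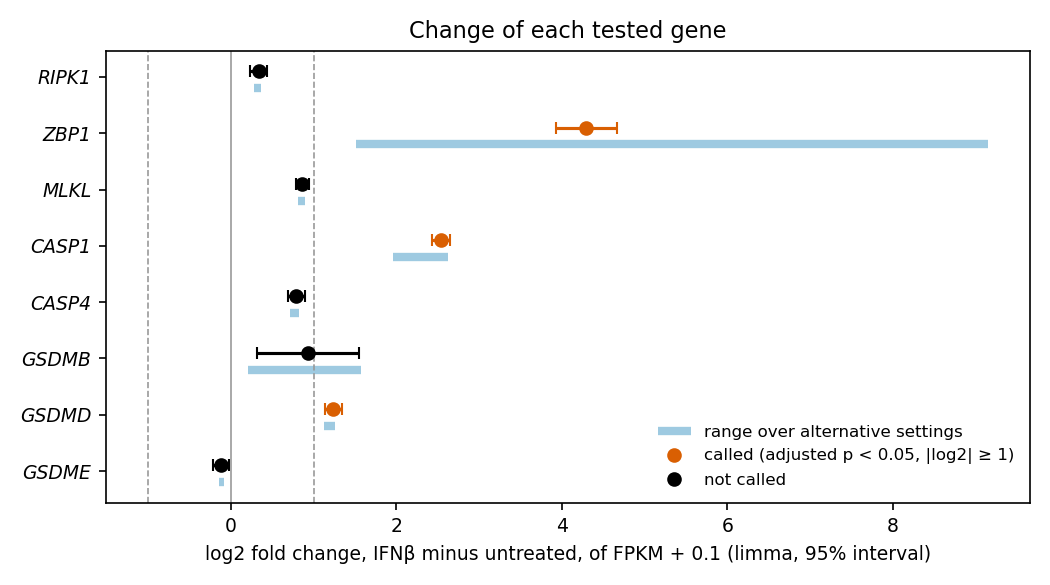
log2 fold change (IFNβ minus untreated, of FPKM + 0.1) of the 8 tested genes with limma's 95% interval, in orange where called, and the range over alternative settings as a light blue bar. Dashed lines mark the fold threshold of 1 on the log2 scale, and ZBP1, CASP1 and GSDMD lie beyond it, with the widest range for ZBP1, from 1.52 to 9.15.

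The order of levels shifted between the groups. In untreated cells MLKL at 10.3 FPKM was followed by GSDMD at 6.36, CASP4 at 6.12 and GSDME at 6.04 FPKM, and single libraries of CASP4 overlapped with those of GSDMD and of GSDME. RIPK1, CASP1 and GSDMB came next, and ZBP1 and RIPK3 were listed at 0. After IFNβ the order was MLKL, GSDMD, CASP4, CASP1, GSDME, RIPK1, ZBP1, GSDMB and RIPK3, with no overlap between neighbours in it. With the same fragments divided by the exon lengths of GENCODE release 29, RIPK1 had the highest mean in untreated cells, overlapping with MLKL. It took the third place after IFNβ, and CASP1 stayed ahead of GSDME. These places of RIPK1 may be too high, because some of its fragments may lie outside those exons.

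Within each group of genes the composition changed with the levels. Summed FPKM of the gasdermins went from 12.5 ± 0.222 to 20.9 ± 1.02, or 1.68 times, and GSDMD supplied 50.9% of it in untreated cells and 72.2% after IFNβ, while GSDME went from 48.4% to 26.6%. GSDMB supplied 0.643% and 1.17%. The ratio of GSDMD to GSDME was 1.04, 1.05 and 1.07 in untreated libraries and 2.76, 2.78 and 2.60 after IFNβ, so near-equal levels became a clear excess of GSDMD.

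The caspase pair summed to 7.39 ± 0.242 FPKM in untreated cells and 18.5 ± 0.361 FPKM after IFNβ, or 2.51 times, and the share of CASP1 went from 17.2% to 42.4%. The ratio of CASP4 to CASP1 was 4.89, 4.85 and 4.72 in untreated libraries and 1.44, 1.30 and 1.34 after IFNβ. CASP4 thus remained the more abundant of the pair in every library.

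The necroptosis genes summed to 14.0 ± 0.0727 and 25.4 ± 0.891 FPKM, or 1.81 times. MLKL kept 73.5% of the sum in untreated cells and 74.1% after IFNβ, RIPK1 went from 26.5% to 18.6%, and ZBP1 from 0 to 7.36%. With the exon lengths of release 29, an alternative added after the data had been seen, MLKL made up 49.0% and 54.9% and RIPK1 51.0% and 39.6%. These shares may be too high for RIPK1 and too low for MLKL, since some fragments of RIPK1 may lie outside those exons. The ratio of MLKL to RIPK1 was 2.77 ± 0.0963 in untreated cells and 3.99 ± 0.0692 after IFNβ. On the log2 scale the ratios changed by 0.53 for MLKL to RIPK1, -1.83 for CASP4 to CASP1 and 1.37 for GSDMD to GSDME, with no overlap between groups in any of the 3 pairs compared. A two-sided exact permutation test gave p = 0.1 for each, which is the smallest that 3 against 3 libraries can reach, and 0.1 after adjustment over the 3 pairs.

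**Figure D4:**
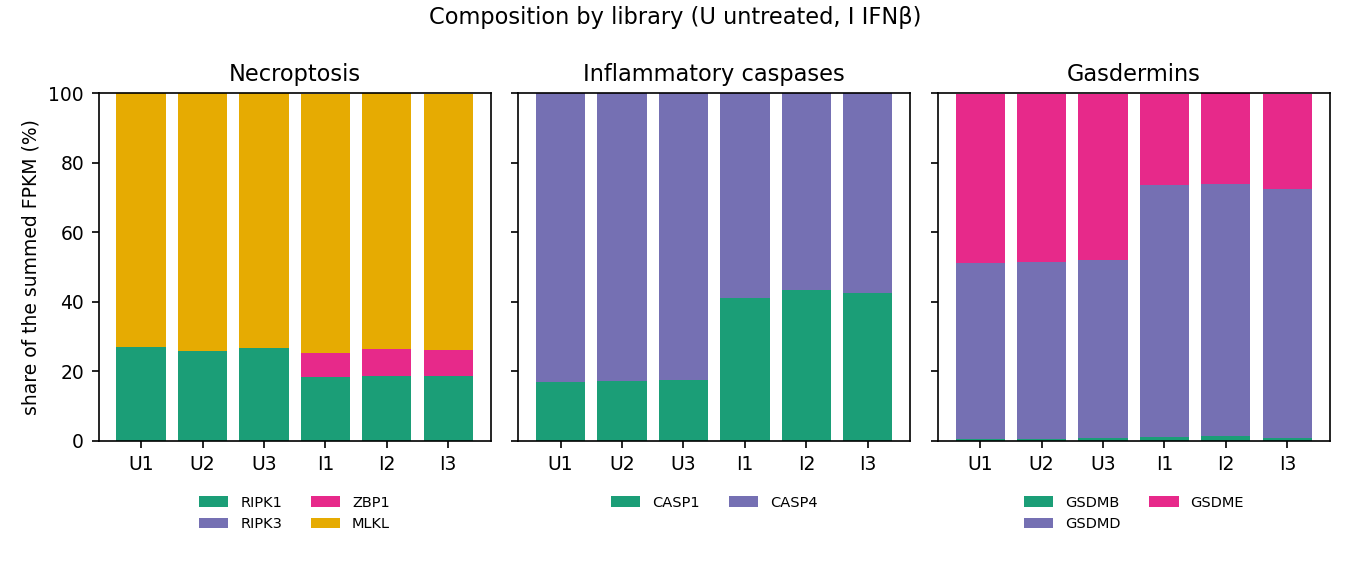
Share in percent of the summed FPKM that each gene supplies within the necroptosis genes, the inflammatory caspases and the gasdermins, as stacked bars for untreated libraries (U1 to U3) and IFNβ-treated libraries (I1 to I3). CASP1 widens from 17.2% to 42.4% of the caspase sum and GSDMD from 50.9% to 72.2% of the gasdermin sum, and RIPK3 is too low to be seen.

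Genes whose pattern over the 6 libraries was most like that of the 3 called genes were found by the distance between log2(FPKM + 0.1) values centred on each gene's own mean, among 11995 genes (11996 for ZBP1) with a mean of at least 1 FPKM. Nearest to ZBP1 were PARP9 (distance 0.142, log2 fold change 4.30), HLA-B (0.152, 4.41) and TRANK1 (0.214, 4.37), an order that depends on the pseudocount because untreated ZBP1 is at 0. Nearest to CASP1 were NLRC5, the transactivator of MHC class I genes (distance 0.0605, log2 fold change 2.54), IFIT5 (0.0864, 2.53) and LAP3 (0.115, 2.47). Nearest to GSDMD were SPATS2L (distance 0.101, log2 fold change 1.17), TRIM25 (0.140, 1.23) and ENSG00000231358 (0.143, 1.25). The likeness is in size and spread of the change only.

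A further 85 genes that act upstream, beside or downstream of these effectors were read from the same fit, in 10 lists. Of these, 68 were tested, 16 were called higher and 0 lower, and without a fold threshold 34 were higher, 10 were lower and 24 did not pass. Over all genes tested the shares were 3.49% called higher, 15.2% higher and 17.5% lower without a fold threshold, so the number of lower genes is near the background. The 17 untested genes included 6 listed at 0 in all libraries. The median log2 fold change of the 68 was 0.21.

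**Figure D5:**
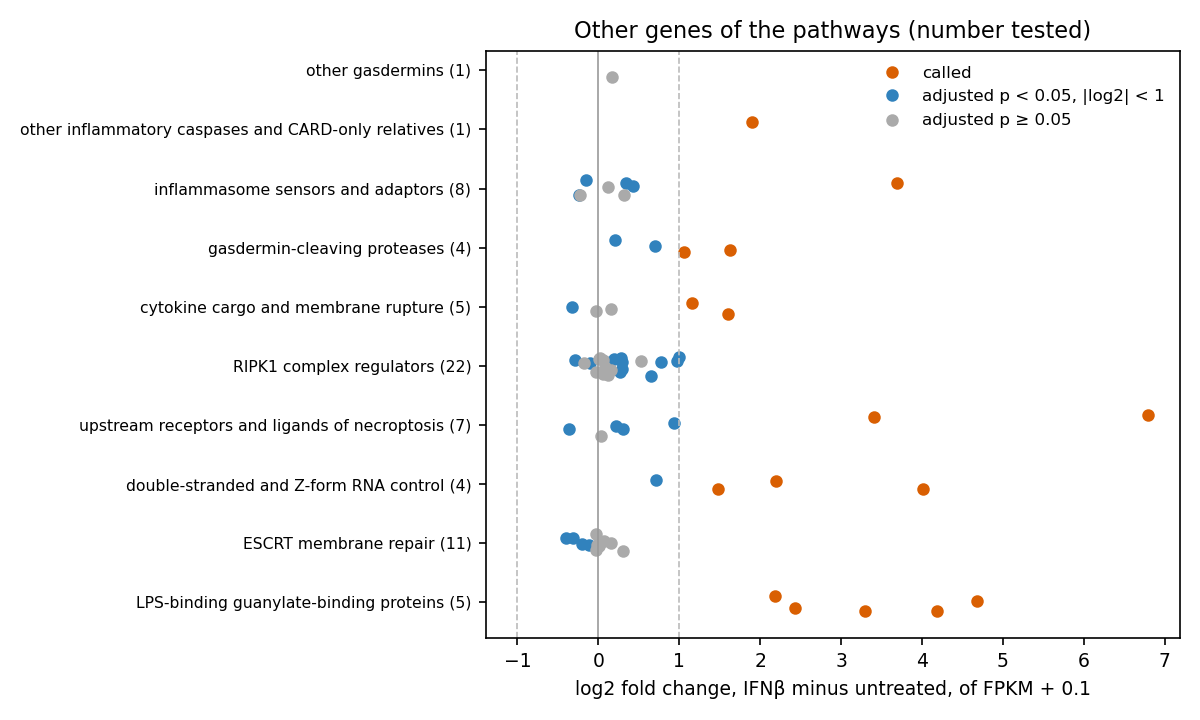
log2 fold change (IFNβ minus untreated, of FPKM + 0.1) of the 68 tested genes in the 10 lists, with the number tested in each list. Orange points were called, blue points passed the adjusted p-value only, and grey points did not pass. All 5 guanylate-binding proteins were called, and the ESCRT genes and RIPK1 complex regulators held no called gene.

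Upstream of the caspases, 8 of 12 inflammasome sensors and adaptors were tested, of which 1 was called, and without a fold threshold 3 were higher and 2 lower, against 15.2% and 17.5% of all genes tested. The called gene was AIM2, the sensor of cytosolic DNA, which went from 0.746 ± 0.184 to 10.6 ± 0.426 FPKM (log2 fold change 3.69, limma adjusted p = 1.6e-05). The most abundant was NEK7, a kinase that binds NLRP3, at 19.3 ± 1.00 and 21.0 ± 0.387 FPKM, which did not pass (adjusted p = 0.069). Some genes are named here after their values were seen, because the pathways turn on them. NLRP3, the sensor of membrane damage, was at 0.467 ± 0.119 and 0.596 ± 0.0134 FPKM (adjusted p = 0.25). PYCARD, the adaptor that links AIM2 and NLRP3 to CASP1, was at 0.0156 ± 0.0138 and 0.0769 ± 0.0280 FPKM, with between 0 and 5 fragments per library, and was not tested. The value of PYCARD is uncertain, since 59.7% of its exon bases are shared with PYCARD-AS1.

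The guanylate-binding proteins, which coat bacteria and help CASP4 to meet lipopolysaccharide, were called higher in 5 of 5. GBP1, the most abundant, went from 5.49 ± 0.298 to 54.6 ± 1.18 FPKM (log2 fold change 3.29, limma adjusted p = 5.4e-08). GBP2 went from 0.963 ± 0.0590 to 5.62 ± 0.251 FPKM and GBP5 from 0.0438 ± 0.0103 to 2.52 ± 0.0607 FPKM, with log2 fold changes of 2.43 and 4.19. GBP4 went from 0.0112 to 2.74 FPKM, and its 6 untreated against 1423 IFNβ-treated fragments give a ratio per library fragment of 239 (95% counting interval 110 to 653).

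Among proteases that cut gasdermins other than CASP1 and CASP4, GZMA and CASP8 were higher without a fold threshold. GZMA, the granzyme that cuts GSDMB, was called on only 4 untreated and 28 IFNβ-treated fragments, at 0.0477 ± 0.0415 and 0.380 ± 0.203 FPKM (log2 fold change 1.63, limma adjusted p = 0.035). Its ratio per library fragment was 7.06, with a 95% counting interval of 2.47 to 27.7. CASP8, which can cut GSDMD and also restrains necroptosis, went from 4.62 ± 0.263 to 7.54 ± 0.189 FPKM (log2 fold change 0.70, limma adjusted p = 0.00012).

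Downstream of the pores, IL18 and IL18BP were called higher among 5 genes of cytokine cargo and membrane rupture. IL18, a cytokine matured by CASP1, went from 0.114 ± 0.0174 to 0.558 ± 0.146 FPKM (log2 fold change 1.60, limma adjusted p = 0.0024), and IL18BP, which neutralizes it outside the cell, from 1.16 ± 0.0471 to 2.70 ± 0.0438 FPKM (1.16, adjusted p = 4.1e-05). IL1B, the most abundant of the list, fell from 11.6 ± 0.984 to 9.20 ± 0.545 FPKM (log2 fold change -0.33, limma adjusted p = 0.013) without reaching the fold threshold. NINJ1, which ruptures the membrane after pores have formed, was at 4.98 ± 0.141 and 4.90 ± 0.342 FPKM (adjusted p = 0.79). In the list of 11 ESCRT genes, which repair membranes pierced by gasdermins or MLKL, 0 were called. Without a fold threshold 4 were lower and 0 higher, against 17.5% lower and 15.2% higher among all genes tested. VPS4A, the ATPase that disassembles ESCRT filaments, went from 12.3 ± 0.222 to 9.26 ± 0.325 FPKM (log2 fold change -0.41, limma adjusted p = 0.00025), and 36.4% of its exon bases are shared with AC026464.4 and COG8. CHMP4B, the most abundant, was at 47.1 ± 2.25 and 47.5 ± 2.07 FPKM.

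Upstream of the necroptosis genes, TLR3 and TNFSF10 were called higher among 10 receptors and ligands, of which 7 were tested. TLR3, the endosomal receptor of double-stranded RNA, went from 1.15 ± 0.0484 to 13.2 ± 0.0791 FPKM (log2 fold change 3.41, limma adjusted p = 5.2e-08). TNFSF10, the death ligand TRAIL, had 4 untreated and 3677 IFNβ-treated fragments in all, from 0.0150 to 12.6 FPKM, which is a ratio per library fragment of 928 (95% counting interval 362 to 3406). TNFRSF10B, a receptor of TRAIL and the most abundant gene of the list, fell from 104 ± 1.14 to 80.8 ± 2.42 FPKM (log2 fold change -0.36, limma adjusted p = 0.00012). In the control of double-stranded and Z-form RNA, 3 of 4 tested genes were called. ADAR, which edits double-stranded RNA and binds Z-RNA as ZBP1 does, went from 31.8 ± 0.416 to 88.8 ± 0.326 FPKM (log2 fold change 1.48, limma adjusted p = 3.5e-08). EIF2AK2, the kinase PKR, went from 10.2 ± 0.254 to 47.4 ± 0.679 FPKM, and SAMHD1, a nucleotide hydrolase, from 2.61 ± 0.108 to 43.6 ± 0.610 FPKM, with log2 fold changes of 2.20 and 4.01. TREX1 was listed at 0 in all libraries, and all of its annotated exon bases are shared with ATRIP.

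Among 22 regulators of the RIPK1 complex, 0 were called. Without a fold threshold 10 were higher and 2 lower, against 15.2% higher and 17.5% lower among all genes tested. RBCK1, a subunit of the linear ubiquitin ligase, went from 8.03 ± 0.282 to 15.9 ± 0.651 FPKM (log2 fold change 0.98, limma adjusted p = 1.4e-05). BIRC3, a ubiquitin ligase that modifies RIPK1, went from 0.451 ± 0.0339 to 0.999 ± 0.0591 FPKM. Both were just short of the fold threshold on the scale of log2(FPKM + 0.1). The ratio of means was 1.98 for RBCK1 and 2.21 for BIRC3, whose low level makes the added 0.1 count. CFLAR, the inhibitor of CASP8, had a log2 fold change of 0.78. The 2 lower genes were FADD, the adaptor of CASP8, at -0.29, and MAP3K7, the kinase TAK1, at -0.11 on the log2 scale. FADD shares 54.9% of its exon bases with another gene. CDC37, a chaperone of kinases and the most abundant of the list, was at 102 ± 0.622 and 104 ± 1.45 FPKM. Among the remaining lists, CARD16 was the only gene tested of 5 inflammatory caspase relatives, and PJVK, the only one tested of 3 other gasdermins, was at 0.117 ± 0.0341 and 0.142 ± 0.0304 FPKM (adjusted p = 0.69).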

How the data were processed

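Total RNA was extracted with TRIzol, mRNA was enriched, and libraries were sequenced as 2 × 150 bp pairs on a Novaseq sequencer. The submitters' processing notes name fastp, HISAT2, StringTie and GRCh38, with no versions and no role for each tool. The authors deposited FPKM per Ensembl gene and library. The annotation release, which tool counted the fragments and the use of strand are not given in the sources used here, and 4436 IDs are not in GENCODE release 29, from which locations and exon overlaps were taken.

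The genes and lists were chosen with earlier results of these data known. Named were the 9 genes, the called genes (at most 4) and the most abundant gene of each list, the nearest patterns and overlapping genes. NLRP3, PYCARD, CASP8, NINJ1, VPS4A, TREX1, RBCK1, BIRC3, CFLAR, FADD and MAP3K7 were added after their values were seen. Some genes of the lists count in the totals and are not reported here. Whole fragments, within 0.001, were obtained for 100% of the 35303 genes above 0 and summed to between 99.25% and 99.29% of each library's divisor. For 16427 genes they came through the release 29 length. The others were given the smallest whole numbers that fit, which always exist for a gene above 0 in a single library. Such numbers are fixed only up to a common factor, so the 100% does not check them. Replicate pairs differed by more than counting error (chi-square per degree of freedom 1.78 to 3.38). Counting intervals cover counting error only.

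Groups were compared with limma 3.58.1 (R 4.3.3), with an intensity trend and no covariate, on log2(FPKM + 0.1), keeping genes that averaged 0.1 FPKM or more, two-sided, with Benjamini-Hochberg adjustment over 20716 genes. On simulated data of 20287 genes for this comparison, 98 of 100 genes changed 4-fold were called, and the 29 false calls all had under 20 fragments. The simulation used a dispersion of 0.005, and changed genes were drawn only from those with at least 20 expected untreated fragments. Genes with fewer, such as ZBP1 and GSDMB, are therefore not covered by this recovery. Promoters were RefSeq windows, and figures and sequences were made with Python 3.11.15. Alternatives were other pseudocounts, filters, scalings, variance models and thresholds, a replicate block, each library left out, limma-voom on the fragments and, after the data had been seen, other gene lengths.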

Additional observations from a re-analysis of the deposited data

How the results depend on the processing

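ZBP1, CASP1 and GSDMD were the genes called in every alternative fit that tested them, and 0 of the 9 genes were called lower in any. Without a fold threshold 7 of the 8 tested genes were called, all 7 higher. Of 68 pathway genes tested 44 were called, 34 higher and 10 lower, where 15.2% of all genes tested were higher and 17.5% lower. The number of all genes called was 875, against 304 with a pseudocount of 1, 425 with a mean of at least 1 FPKM, where ZBP1 and GSDMB were not tested, and 6778 without a fold threshold. Leaving out one library at a time gave 3 to 3 of the 9 genes called, 809 to 867 genes in all and 15 to 17 pathway genes. The adjusted p of GSDMB was 0.072 with quantile normalization and that of GSDME was 0.044. The log2 fold change of MLKL stayed between 0.81 and 0.90, of CASP4 between 0.71 and 0.82, of RIPK1 between 0.28 and 0.36 and of CASP1 between 1.96 and 2.63. No scaling moved the median of all genes further than -0.06, and with quantile normalization 73.4% of called genes were higher, against 82.5%.

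Libraries that share a number are not stated to be paired, and the correlations of their deviations were 0.014, 0.0228 and 0.0307. With the replicate number as a block 3 of the 9 genes and 829 genes in all were called, and the adjusted p of GSDMB was 0.095. Each library correlated best with its own number, but all of these correlations are very small, and pairing cannot be told from them. Depth limits RIPK3, GSDMB, PYCARD and GZMA, which rest on few fragments.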
